A study of Homo sapiens with 6 samples.

Results

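Proteins bound for secretion, for the plasma membrane or for the organelles of the secretory pathway enter the endoplasmic reticulum (ER) while they are made or shortly after. The signal recognition particle (SRP) binds the signal sequence as it leaves the ribosome and docks at the SRP receptor, and the chain then passes through the Sec61 channel, helped by SEC62, SEC63, TRAM1 and the translocon-associated protein complex (TRAP). Signal peptidase cuts off the signal sequence, and oligosaccharyltransferase moves a preassembled glycan from a lipid carrier onto asparagine residues of the chain. Neurons depend on this route for receptors, ion channels, adhesion molecules and neuropeptides, most of which are N-glycosylated.

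The 32 genes described here encode these machines and were taken by symbol from the deposited count table of 58395 genes. They comprise 7 genes of SRP and its receptor, 6 of the Sec61 translocon with its partners, 4 of TRAP, 5 of signal peptidase and 10 of oligosaccharyltransferase. Each symbol was found, and all 32 genes passed the filter on low counts that left 16778 genes to be tested, with 188 to 18471 reads per gene and library. The lowest of these counts, that of MAGT1 in Tau 2, was thus still well above the filter.

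RNA sequencing was performed on SH-SY5Y, a human neuroblastoma line, in 6 libraries. In 3 of them the cells are labelled as overexpressing Tau, and in 3 as expressing a control vector. The study names the isoform as Tau 0N4R, which has no N-terminal insert and all microtubule-binding repeats. By the study's methods both groups were transfected with pcDNA3.1, a plasmid with a viral promoter that carried the Tau cDNA or was empty, and were then differentiated with retinoic acid followed by brain-derived neurotrophic factor, so that the model is a differentiated tumour line with a transfected transgene. No source says that replicates came from separate cultures, so that the p-values below measure the spread between these libraries, which may be technical. In bulk RNA, fewer cells of a type and less RNA per cell cannot be told apart.

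The libraries held 27945481 to 31706415 counted reads. Levels are given as CPM after TMM scaling (read counts relative to library size), a unit that corrects for depth but not for gene length. MAPT, the gene for Tau, had 34.6, 32.6 and 34.6 CPM in the 3 libraries labelled Tau, against 34.8, 51.9 and 41.5 CPM in the 3 libraries labelled control, with a log2 fold change of -0.33 (SE 0.18, edgeR adjusted p = 0.239). The labels are therefore not borne out by the MAPT reads, and every direction below is between libraries labelled Tau and libraries labelled control. The study has other evidence on Tau, from protein. It reports a western blot of Tau in differentiated control and Tau-overexpressing cells, and fractions in which it finds the overexpressed Tau soluble. No source used here ties those blots to the cultures of these libraries. Of 10 noradrenergic neuroblastoma markers, 9 exceeded 10 CPM in every library and TH was under 1 CPM; their summed level was 2766.5 to 3073.5 CPM in Tau-labelled libraries, against 3288.1 to 3917.9 CPM in control-labelled libraries. Of 10 mesenchymal neuroblastoma markers, PRRX1 was at 0 and YAP1, SNAI2 and COL1A2 were under 1 CPM in every library; their summed level was 539.45 to 565.49 CPM in Tau-labelled libraries, against 623.36 to 633.24 CPM in control-labelled libraries. That sum is nearly all VIM and TWIST1, which had log2 fold changes of -0.15 and -0.39 and were not called, whereas the other 5 of the 7 tested markers had fold changes above 0 and COL1A1 was called higher (log2 fold change 2.04, edgeR adjusted p = 0.0103). The 37 mitochondrially encoded genes took 45.8, 57.8 and 53.8% of all reads in Tau-labelled libraries, against 45.6, 30.5 and 45.6% in control-labelled libraries. The part that cell state or mitochondrial share plays in the results was not tested beyond the alternatives given.

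A large share of the ER entry and N-glycosylation genes was lower in libraries labelled Tau. Of the 32 genes, 15 were called lower and 0 higher, whereas 8.42% of all tested genes were called lower and 9.38% higher. To be called, a gene had to change by more than 0.5 on the log2 scale with a p under 0.1 in edgeR's quasi-likelihood test after Benjamini-Hochberg adjustment across the 16778 genes. The fold change was below 0 for 29 of the 32 genes and above 0 for SRP14, SRP68 and OST4, none of which was called and all 3 of which turned below 0 when libraries were scaled by total counts. The median log2 fold change was -0.53, beside -0.03 over all tested genes. For 16 genes every Tau-labelled library lay below every control-labelled library, and for 0 genes the reverse held. Over all tested genes these shares were 16.8% and 16.1%. The remaining 16 genes overlapped between the groups.

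By complex, the calls were uneven. Signal peptidase had 3 of 5 genes called lower and a median log2 fold change of -0.90. Oligosaccharyltransferase had 6 of 10 and a median of -0.74, and the Sec61 translocon 3 of 6 and a median of -0.48. TRAP had 1 of 4 with a median of -0.38, and SRP with its receptor had 2 of 7 with a median of -0.20. Whether the complexes differed from each other was not tested.

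**Figure D1:**
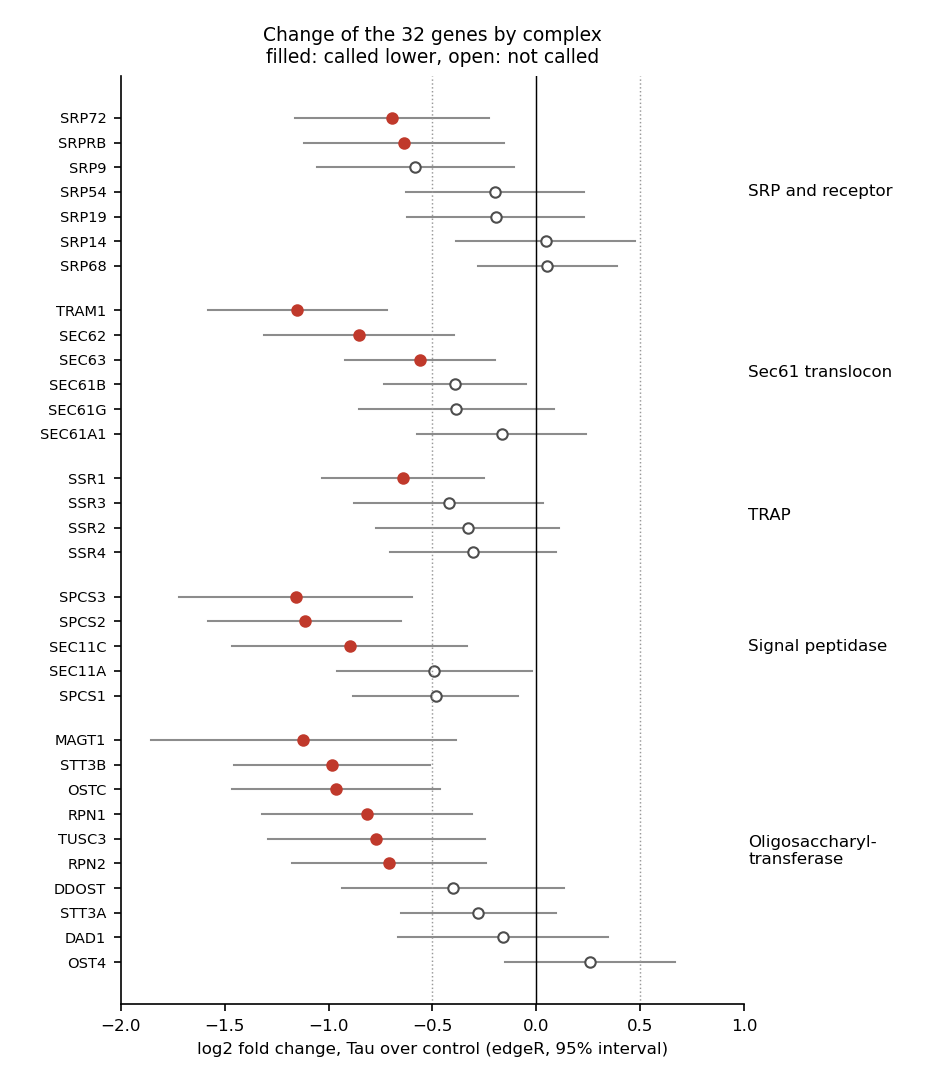
Log2 fold change of each of the 32 genes, libraries labelled Tau over libraries labelled control, by complex, with the 95% interval of the edgeR fit (filled points: called lower, 15 genes; open points: not called, 17 genes; dotted lines: a change of 0.5). Points lie left of 0 for 29 genes, among them all genes of the Sec61 translocon (6), TRAP (4) and signal peptidase (5).

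The summed level of all 32 genes was 2232.6, 2023.4 and 2152.3 CPM in Tau-labelled libraries, against 2895.8, 3397.8 and 2388.5 CPM in control-labelled libraries. The sum was thus 26.2% lower in Tau-labelled libraries, and the groups did not overlap. Because the mitochondrial share also differed between libraries, the sum was also taken as a share of the reads outside the mitochondrial genes, and it was then 26.9% lower. As a share of all counted reads it was 42.1% lower. By complex, the Tau-labelled mean was 0.827 times the control-labelled mean for SRP and its receptor, 0.702 times for the Sec61 translocon, 0.777 times for TRAP, 0.622 times for signal peptidase and 0.707 times for oligosaccharyltransferase. The groups overlapped for TRAP and oligosaccharyltransferase and not for the other 3 sums.

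**Figure D2:**
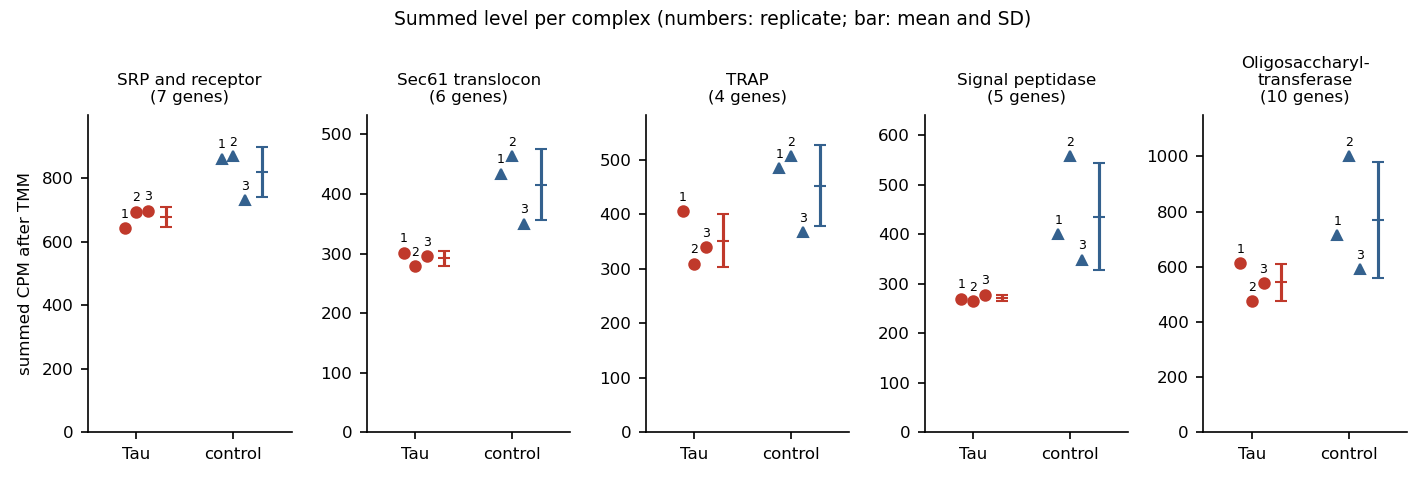
Summed CPM after TMM of the genes of each complex in each library (circles: labelled Tau; triangles: labelled control; numbers: replicate; bars: mean and SD, n = 3), on axes that start at 0. The signal peptidase sums are 270.31, 264.75 and 277.77 CPM in Tau-labelled libraries and 400.78, 557.65 and 349.01 CPM in control-labelled libraries, with control 3 the lowest control in all 5 panels.

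The control-labelled libraries were not alike. Control 2 was the highest control for 25 of the 32 genes and control 3 the lowest control for 25, so that control 3 lay closest to the Tau-labelled libraries. Among the Tau-labelled libraries, Tau 2 was the lowest for 22 genes. Control 3 lay below the highest Tau-labelled library for 15 genes, control 1 for 8 and control 2 for 4. The number of calls depended on these libraries. Without control 1 only TRAM1 of the 32 genes was called lower, without control 2 there were 6, and without control 3 there were 19. Without Tau 1 there were 10, without Tau 2 there were 6, and without Tau 3 there were 7. Over all genes, the share called lower was 0.417% without control 1, 4.73% without control 2 and 14.8% without control 3, and 4.28%, 2.48% and 2.47% without Tau 1, Tau 2 and Tau 3, so that the background moved with the count of these genes. With any 1 library left out, the fold change of each of the 15 genes stayed below 0. When the mitochondrial share was added as a covariate, TRAM1 and SPCS2 were the 2 genes called lower and OST4 the 1 gene called higher (log2 fold change 0.57, edgeR adjusted p = 0.0845), where 3.58% of all genes were called lower and 4.3% higher.

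**Figure D3:**
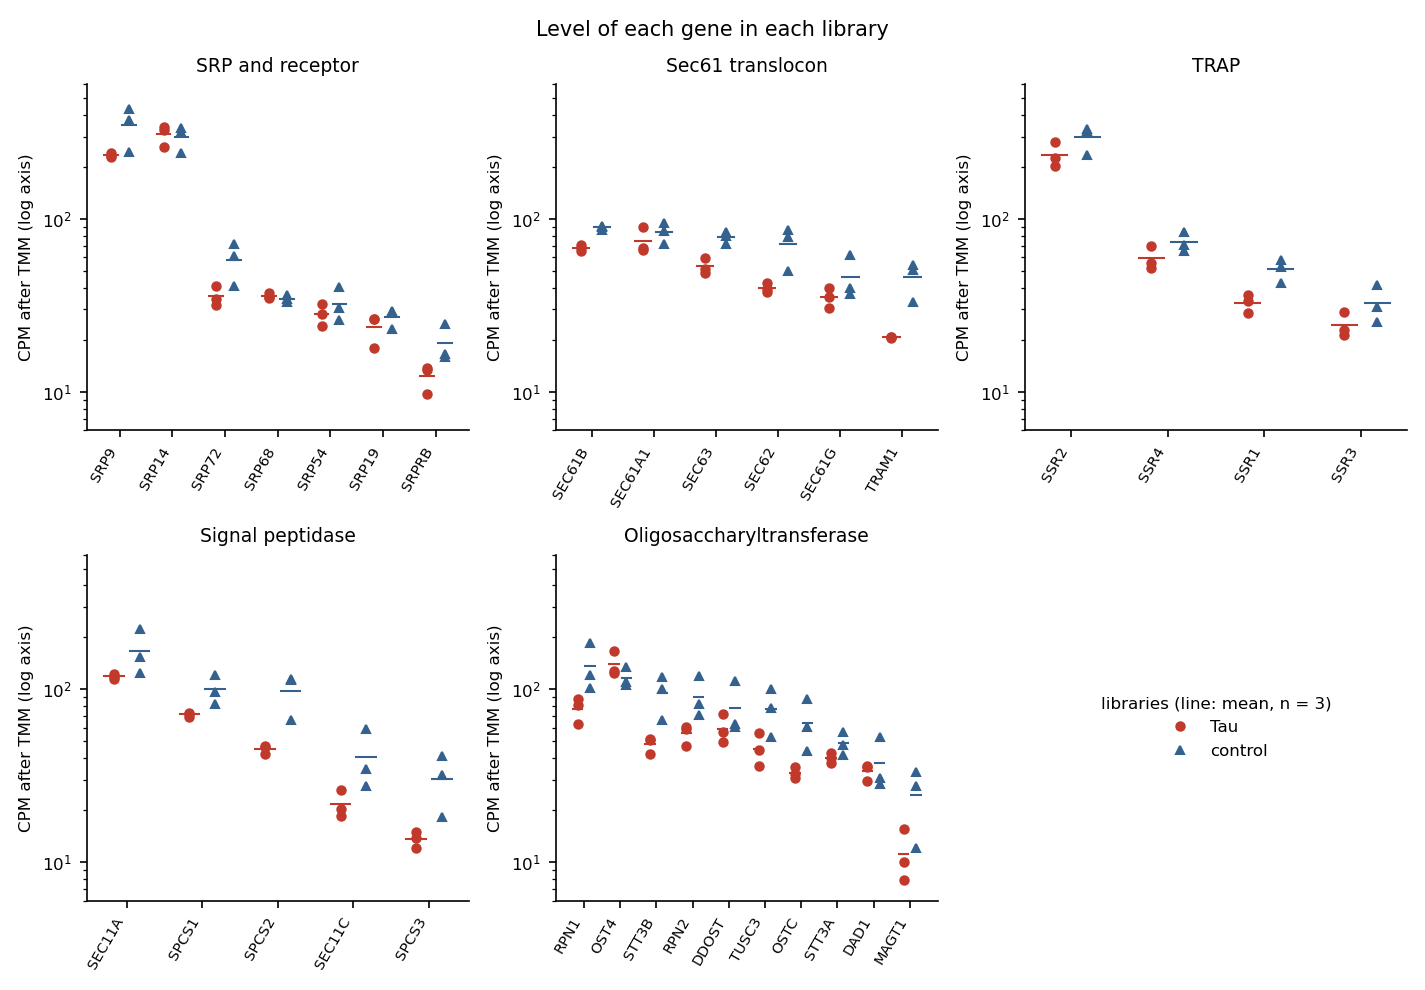
CPM after TMM of each gene in each library on a log axis, by complex, with genes ordered by level (circles: labelled Tau; triangles: labelled control; lines: group mean, n = 3). TRAM1 shows the tightest Tau-labelled values, 20.4 to 20.9 CPM, below control-labelled values of 33.2 to 54.1 CPM, and OST4 the highest excess of the Tau-labelled mean.

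The promoters of these genes were searched for elements of the unfolded protein response, the program that raises ER capacity when unfolded proteins build up. RefSeq windows of 300 bases around the start site (GRCh38.p14) were matched for 27 of the 32 genes; RPN1, STT3B, TUSC3, SPCS1 and TRAM1 were not matched. Both strands were searched. The ER stress element (CCAAT and CCACG with 9 bases between them), bound by ATF6 with NF-Y, was found in 0 of the 27, and in 0.0916% of 27305 genes in the RefSeq table. The unfolded protein response element TGACGTGG was found in 4 of the 27 (14.8%), against 0.927% of all genes and 1.19% of tested genes. These 4 stretches are shown because the element is the rarest that was present; each runs 5′ to 3′ on the strand of the gene, with the element in capitals as its reverse complement.

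SEC62 chr3:169966779-169966806 (plus strand): ccctcctcgctCCACGTCAgagggaacc
SRP19 chr5:112861164-112861193 (plus strand): aagtcttcatgCCACGTCAgagactagaga
SSR3 chr3:156554148-156554177 (minus strand): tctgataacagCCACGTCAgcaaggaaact
SSR4 chrX:153794528-153794557 (plus strand): tcagggaggggCCACGTCAgtgctgccaga

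The element ended 10 bases before the start site in SEC62, 105 in SRP19, 34 in SSR3 and 122 in SSR4. SSR3 and SSR4 have several start sites in the table, 3 and 2, which gives each more windows to match in; counted by window, 11.8% of the windows of these genes held the element, against 0.729% of all windows. Of the 4 genes only SEC62 was called lower, so that the element was in 1 of the 11 matched genes called lower and in 3 of the 16 others. A match is a description of the letters in a window and not of binding.

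The core ACGTG, which lies inside the longer element, was found in 16 of the 27 genes (59.3%), against 24.9% of all genes and 3430 of the 10717 tested genes with a window. It was present in 7 of 11 matched genes called lower and in 9 of the 16 others. Besides SEC62, the called genes with a core were SPCS2, SEC11C, SEC63, SSR1, OSTC and SRPRB, and for each the stretch with the core nearest to the start site is shown, with the core or its reverse complement in capitals.

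SPCS2 chr11:74949137-74949165 (plus strand): aagccccgcggcCACGTcctctgactacc
SEC11C chr18:59139831-59139859 (plus strand): gagtcgccggtcACGTGgccgcaaggacg
SEC63 chr6:107958263-107958291 (minus strand): cgttgcgctcgcCACGTctcccttagcga
SSR1 chr6:7313213-7313241 (minus strand): cccgtgcgcggtACGTGtcccgcccctcg
OSTC chr4:108650349-108650371 (plus strand): cttggcCACGTtagaagtcccgc
SRPRB chr3:133805797-133805814 (plus strand): agagtgcagggcCACGTc

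Among the genes of targeting, SRP72 and SRPRB were called lower and the other 5 were not. SRP72, which with SRP68 forms a protein dimer on the SRP RNA (chromosome 4, 56467617 to 56503681, GRCh38, plus strand), had 40.9, 31.7 and 34.5 CPM in Tau-labelled libraries, against 60.7, 72.0 and 40.7 CPM in control-labelled libraries. The groups overlapped by a narrow margin, between Tau 1 and control 3. The log2 fold change was -0.70 (SE 0.21, edgeR adjusted p = 0.0608). Its partner SRP68 (chromosome 17, 76038775 to 76072517, minus strand) had 35.3, 34.7 and 37.5 CPM in Tau-labelled libraries, against 34.4, 32.9 and 36.4 CPM in control-labelled libraries. These values were interleaved, and the log2 fold change of 0.05 (SE 0.15) has a 95% interval of -0.28 to 0.39.

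SRPRB, the membrane-anchored GTPase subunit of the SRP receptor (chromosome 3, 133784023 to 133825772, plus strand), had 13.5, 9.71 and 13.7 CPM in Tau-labelled libraries, against 16.0, 24.8 and 16.5 CPM in control-labelled libraries. All 3 Tau-labelled values were the lower ones, although Tau 3 and control 1 were close. The log2 fold change was -0.64 (SE 0.22, edgeR adjusted p = 0.0853). RAB6B overlaps SRPRB on the opposite strand with 3302 reads beside 3059 of SRPRB, each counted over the whole gene. The strand setting of the counting is not given in the sources used here. Reads from the stretch that both genes share therefore cannot be told apart, and their number was not measured. TF overlaps SRPRB on the same strand with 196 reads, 6.41% of those of SRPRB. TF was higher in Tau-labelled libraries (log2 fold change 2.47, edgeR adjusted p = 0.0089), and reads in that shared stretch were not measured either. SRPRA, the other receptor subunit and not among the 32 genes, had a log2 fold change of 0.11 (edgeR adjusted p = 0.716).

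The 2 genes of the Alu domain, which slows elongation while the ribosome is targeted, were the most abundant of this group on the RPKM scale, which corrects for length. SRP9 averaged 122 RPKM in Tau-labelled libraries and 235 RPKM in control-labelled libraries. SRP14 averaged 136 RPKM in Tau-labelled libraries and 166 RPKM in control-labelled libraries. The other 5 averaged 2.88 to 10.4 RPKM in control-labelled libraries. RPKM values are relative to all counted reads, mitochondrial ones included, and that share differed between libraries. They are used here to compare genes, and changes between the groups are read from the TMM-scaled fit. Rankings by RPKM also depend on the gene lengths that the deposited values imply, such as 10.5 kb for SRP19 and 2.0 kb for SRP14. Whether these are the lengths of the expressed transcripts was not tested. SRP9 was lower in every Tau-labelled library on the CPM scale but missed the call, with a log2 fold change of -0.58 (edgeR adjusted p = 0.105). SRP14, its obligate partner in the heterodimer, had a log2 fold change of 0.05 with overlapping groups on the CPM scale. On the RPKM scale SRP14 was lower in every Tau-labelled library. SRP54, the GTPase subunit that binds the signal sequence, and SRP19, which is needed for SRP54 to join the particle, both had a log2 fold change of -0.20 with overlapping groups. SRP19 overlaps REEP5 on the opposite strand, which had 10953 reads beside 4668 of SRP19, so that the SRP19 value is uncertain for the same reason as that of SRPRB. The same uncertainty holds, with fewer reads in the opposite-strand gene, for SPCS1 with GLT8D1 (60.2% of the reads of SPCS1), SEC61A1 with RUVBL1 (57.8%), SSR4 with IDH3G (34.7%) and OST4 with AGBL5 (24.4%). These are totals over whole genes and do not measure the reads in the shared stretch.

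In the translocon group the channel subunits were not called, whereas 3 of its partners were. TRAM1, a membrane protein that contacts signal sequences as they enter the bilayer (chromosome 8, 70573218 to 70608416, minus strand), had 20.8, 20.4 and 20.9 CPM in Tau-labelled libraries, against 50.8, 54.1 and 33.2 CPM in control-labelled libraries. The Tau-labelled values were nearly equal and all lay below the lowest control-labelled value. The level was 55.0% lower, with a log2 fold change of -1.15 (SE 0.20, edgeR adjusted p = 0.0092). TRAM1 was the only one of the 15 called genes whose call held under all 20 alternatives that were run, with fold changes of -1.51 to -0.80.

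SEC62, a translocon subunit for post-translational import that is also a receptor in ER turnover by autophagy (chromosome 3, 169966635 to 169998373, plus strand), had 37.6, 39.3 and 42.6 CPM in Tau-labelled libraries, against 86.9, 79.1 and 49.9 CPM in control-labelled libraries. The groups did not overlap, and control 3 was the nearest to the Tau-labelled values. The log2 fold change was -0.85 (SE 0.21, edgeR adjusted p = 0.0295), and this is the called gene whose promoter holds the TGACGTGG element. SEC63, the J-domain protein that recruits the chaperone BiP to the channel, had a log2 fold change of -0.56 (edgeR adjusted p = 0.0532) and groups that did not overlap.

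The 3 subunits of the channel itself ranged from -0.39 to -0.17 in log2 fold change. SEC61A1, the pore, had a log2 fold change of -0.17 with a 95% interval of -0.58 to 0.24 and overlapping groups. SEC61B, the small tail-anchored subunit, was lower in every Tau-labelled library, at 65.2 to 71.0 CPM against 86.9 to 91.7 CPM in control-labelled libraries, but was not called (log2 fold change -0.39, edgeR adjusted p = 0.124). SEC61G, the other small subunit, had a log2 fold change of -0.39 with overlapping groups. On the RPKM scale SEC61B led the control-labelled libraries with a mean of 85.2, followed by SEC61G with 29.2 and SEC61A1 with 20.4.

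TRAP, which sits beside the channel and aids the entry of chains with weak signal sequences, had 1 gene called. SSR1, its alpha subunit (chromosome 6, 7268306 to 7347446, minus strand), had 28.5, 33.4 and 36.5 CPM in Tau-labelled libraries, against 52.9, 58.0 and 42.5 CPM in control-labelled libraries. Every Tau-labelled library was below every control-labelled one, and the log2 fold change was -0.64 (SE 0.18, edgeR adjusted p = 0.0451). AL139095.2, a processed pseudogene that overlaps SSR1 on the same strand, held 695 reads, 8.62% of those of SSR1. Its log2 fold change was -0.06, and reads in the shared stretch were not measured. The beta, gamma and delta subunits SSR2, SSR3 and SSR4 had log2 fold changes of -0.33, -0.42 and -0.31 with overlapping groups, and none was called. SSR3 and SSR4 are among the 4 genes with TGACGTGG in a promoter window.

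Signal peptidase was the complex in which all members lay lower in every Tau-labelled library, and 3 of its 5 genes were called. SPCS2, an accessory subunit (chromosome 11, 74949261 to 74979033, plus strand), had 46.2, 47.0 and 42.5 CPM in Tau-labelled libraries, against 114, 113 and 66.9 CPM in control-labelled libraries. The gap between the groups was wide even for control 3. The log2 fold change was -1.11 (SE 0.21, edgeR adjusted p = 0.0138). Processed copies of SPCS2 held reads equal to 5.39% of those of the gene, so that a small part of its signal could belong to either.

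SPCS3, the accessory subunit that is essential for the enzyme in yeast (chromosome 4, 176319966 to 176332245, plus strand), had 15.0, 12.1 and 13.8 CPM in Tau-labelled libraries, against 31.8, 41.3 and 18.2 CPM in control-labelled libraries. All Tau-labelled libraries were below control 3, the lowest control. The log2 fold change of -1.16 (SE 0.26, edgeR adjusted p = 0.0216) was the most negative among the 32 genes. SPCS1, the accessory subunit that is dispensable for cleavage in yeast, was not called (log2 fold change -0.48, edgeR adjusted p = 0.107).

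SEC11A and SEC11C are alternative catalytic subunits, 1 to a complex. SEC11C (chromosome 18, 59139866 to 59158832, plus strand) had 20.4, 18.4 and 26.2 CPM in Tau-labelled libraries, against 34.6, 59.0 and 27.6 CPM in control-labelled libraries. The groups did not overlap, though Tau 3 and control 3 were close, and the log2 fold change was -0.90 (SE 0.26, edgeR adjusted p = 0.0493). SEC11A (chromosome 15, 84669538 to 84716460, minus strand) had 115.5, 118 and 123 CPM in Tau-labelled libraries, against 124, 223 and 154 CPM in control-labelled libraries. SEC11A was not called, with a log2 fold change of -0.49 (SE 0.22, edgeR adjusted p = 0.155) and a gap of less than 1 CPM between Tau 3 and control 1.

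In oligosaccharyltransferase the calls fell on 1 of the 2 catalytic subunits, on the ribophorins and on the subunits that define the 2 forms of the enzyme. STT3A forms a complex that works at the channel while the chain is entering, and STT3B a complex that acts on sites STT3A has skipped. STT3B (chromosome 3, 31532638 to 31637616, plus strand) had 42.0, 50.6 and 51.5 CPM in Tau-labelled libraries, against 100.1, 118 and 66.5 CPM in control-labelled libraries. The groups did not overlap, and the log2 fold change was -0.98 (SE 0.22, edgeR adjusted p = 0.0213).

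STT3A (chromosome 11, 125591712 to 125625215, plus strand) had 43.0, 37.4 and 40.1 CPM in Tau-labelled libraries, against 47.8, 56.7 and 41.6 CPM in control-labelled libraries. Tau 1 was above control 3, and the log2 fold change of -0.28 (SE 0.17, edgeR adjusted p = 0.30) has a 95% interval of -0.65 to 0.09. STT3A overlaps FEZ1 on the opposite strand and CHEK1 on the same strand, with 2553 and 2406 reads beside its own 8438, and FEZ1 was called higher with a log2 fold change of 0.87.

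OSTC, which ties the STT3A complex to the translocon (chromosome 4, 108650585 to 108667820, plus strand), had 32.5, 30.6 and 35.5 CPM in Tau-labelled libraries, against 60.4, 88.0 and 43.8 CPM in control-labelled libraries. All Tau-labelled values lay below control 3. The log2 fold change was -0.96 (SE 0.23, edgeR adjusted p = 0.0278). DC2 is another name of this protein, and KRTCAP2, the other subunit of that kind and not among the 32 genes, had a log2 fold change of 0.27 (edgeR adjusted p = 0.524).

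TUSC3 and MAGT1 are alternative oxidoreductase subunits of the STT3B complex, and both were called lower with overlapping groups. TUSC3 (chromosome 8, 15417215 to 15766649, plus strand) had 55.7, 36.0 and 44.3 CPM in Tau-labelled libraries, against 78.5, 100.3 and 53.0 CPM in control-labelled libraries, with a log2 fold change of -0.77 (SE 0.24, edgeR adjusted p = 0.0632). Tau 1 exceeded control 3. MAGT1 (chromosome X, 77825747 to 77899271, minus strand) had 15.6, 7.90 and 10.05 CPM in Tau-labelled libraries, against 27.6, 33.4 and 12.2 CPM in control-labelled libraries, with a log2 fold change of -1.12 (SE 0.34, edgeR adjusted p = 0.0558). Here too Tau 1 exceeded control 3, and the SE was the widest among the 32 genes.

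RPN1 and RPN2, the ribophorins of both enzyme forms, were called lower with groups that did not overlap. Their log2 fold changes were -0.82 (edgeR adjusted p = 0.0471) and -0.71 (edgeR adjusted p = 0.0567). The other shared subunits were not called, with a log2 fold change of -0.40 for DDOST and -0.16 for DAD1. OST4, the smallest subunit (chromosome 2, 27070472 to 27071654, minus strand), had 168, 125 and 128 CPM in Tau-labelled libraries, against 106, 135 and 111 CPM in control-labelled libraries. The groups overlapped, and its log2 fold change of 0.26 (SE 0.19, edgeR adjusted p = 0.381) was the highest among the 32 genes. On the RPKM scale OST4 led the subunits with a control-labelled mean of 187 RPKM, and STT3A and MAGT1 were lowest with means of 7.62 and 5.86 RPKM.

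The ratio of alternative subunits within a library does not depend on how libraries are scaled. These 3 pairs were chosen because their members take the same place in a complex. A ratio can still carry differences in base composition (GC content 49.4% for SEC11A and 40.3% for SEC11C). It can also carry reads of overlapping genes, such as FEZ1 for STT3A. Neither was tested for the ratios. The log2 ratio of STT3A to STT3B, in RPKM, was -0.52, -0.99 and -0.91 in Tau-labelled libraries, against -1.62, -1.61 and -1.23 in control-labelled libraries. On this scale STT3B was the more abundant transcript in each library, and the ratio was higher in all 3 Tau-labelled libraries. The ranking rests on the gene lengths implied by the deposited RPKM, 7.3 kb for STT3A and 5.0 kb for STT3B. In CPM, without a length correction, STT3A was slightly above STT3B in Tau 1 (43.0 against 42.0 CPM). The linear ratio averaged 0.572 in Tau-labelled libraries and 0.357 in control-labelled libraries. The difference of 0.68 in mean log2 ratio had p = 0.1 in a two-sided exact permutation test, the smallest p that 3 libraries against 3 can give, and p = 0.2 after adjustment over the 3 ratios.

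The log2 ratio of SEC11A to SEC11C was 2.15, 2.33 and 1.88 in Tau-labelled libraries, against 1.49, 1.57 and 2.13 in control-labelled libraries (difference 0.39, exact permutation p = 0.2, adjusted p = 0.2). That of TUSC3 to MAGT1 was 1.74, 2.09 and 2.05 in Tau-labelled libraries, against 1.42, 1.49 and 2.03 in control-labelled libraries (difference 0.31, exact permutation p = 0.2, adjusted p = 0.2). Both overlapped between the groups, with control 3 among the Tau-labelled values, and neither difference exceeded the spread between libraries by this test.

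**Figure D4:**
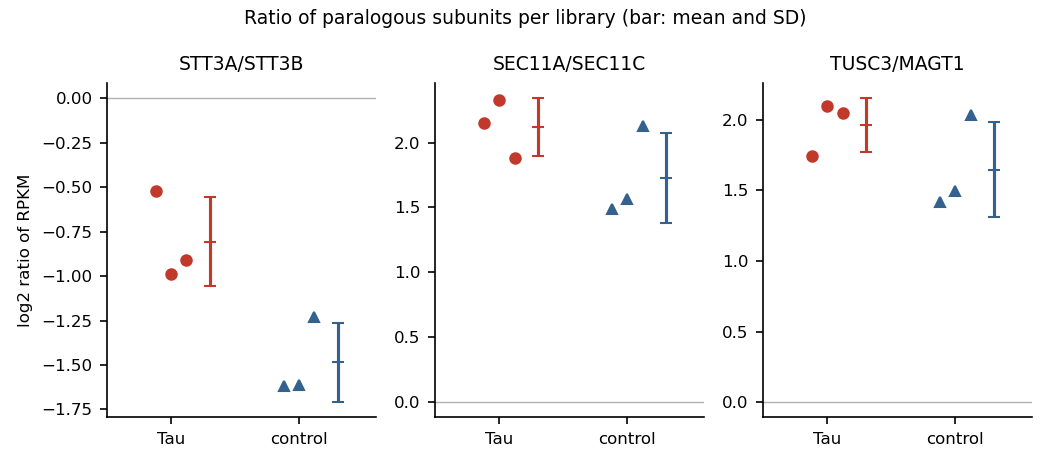
Log2 ratio of the RPKM values of 3 pairs of alternative subunits in each library (circles: labelled Tau; triangles: labelled control; bars: mean and SD, n = 3). The STT3A to STT3B ratio lies from -0.99 to -0.52 in Tau-labelled libraries and from -1.62 to -1.23 in control-labelled libraries, while the other 2 ratios overlap.

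Base composition moved with the groups. Within a library, the Spearman correlation across genes of the level with the GC content of the longest transcript, each level taken relative to the mean of all libraries, was 0.432, 0.262 and 0.323 in Tau-labelled libraries, against -0.521, -0.372 and 0.118 in control-labelled libraries. Over the 32 genes the fold change and GC content had a Spearman correlation of 0.54, and over all genes 0.47 (genes share libraries and are not replicates). Of the 22 genes under the median GC of tested genes, 47.9%, 12 were called lower, where 14.7% of all such genes were called lower. Of the 10 genes at or above it, 3 were called lower (SRPRB, RPN1 and RPN2), where 2.12% of all such genes were.

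When the GC trend of each library was removed before the fit, 8 of the 32 genes were called lower, while 4.11% of all tested genes were. TRAM1, SPCS2, SPCS3, STT3B, OSTC, RPN1 and RPN2 were among the 15 called without the correction, and SSR4 was added (log2 fold change -0.64, edgeR adjusted p = 0.0834). The calls of SRP72, SRPRB, SEC62, SEC63, SSR1, SEC11C, TUSC3 and MAGT1 were lost, with fold changes of -0.79 to -0.29. The median log2 fold change was then -0.33 for the 22 genes of low GC and -0.50 for the 10 genes of high GC, beside -0.03 and -0.02 over all genes of these classes.

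**Figure D5:**
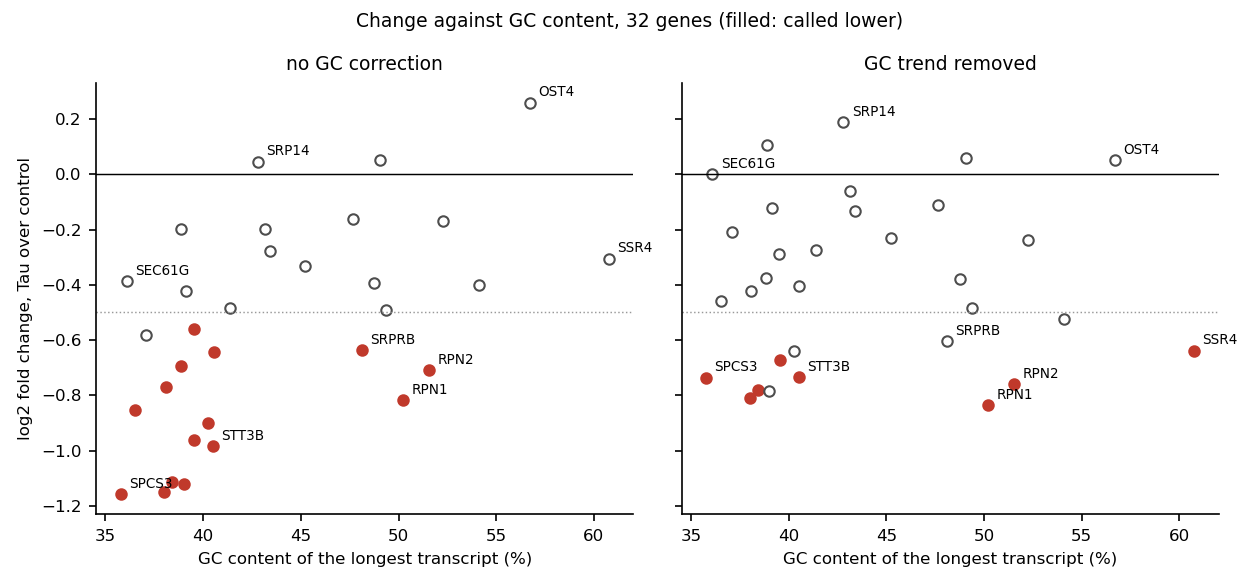
Log2 fold change, libraries labelled Tau over libraries labelled control, against the GC content of the longest transcript for the 32 genes, without a correction (left) and with the GC trend of each library removed (right; filled points: called lower; dotted line: a change of -0.5). Filled points number 15 on the left, of which 12 are at GC contents under 47.9%, and 8 on the right, of which 3 (RPN1, RPN2 and SSR4) are above it.

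The steps around ER entry were followed in 76 genes of 10 neighbouring lists. Of these genes 16 were called lower and 0 higher, beside 8.42% and 9.38% of all tested genes, and the median log2 fold change was -0.23. These calls come from the fit with every library and without a GC correction. How they change when the GC trend is removed or a library is left out was not tested for these genes. None of 6 other targeting and translocon genes was called, and none of 3 other genes listed with oligosaccharyltransferase (KRTCAP2, TMEM258 and MLEC). One gene each was called lower among 7 genes of the multipass translocon (TMCO1, log2 fold change -0.65, edgeR adjusted p = 0.0617), 9 of the ER membrane protein complex (EMC7, -0.57, edgeR adjusted p = 0.0491), 7 of tail-anchor insertion (GET1, -0.56, edgeR adjusted p = 0.0916), 5 of the GPI transamidase (PIGK, -0.66, edgeR adjusted p = 0.0827) and 4 signal peptide peptidases (SPPL2A, -0.82, edgeR adjusted p = 0.0262).

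Synthesis of the lipid-linked glycan that oligosaccharyltransferase uses had 6 of 24 genes called lower. NUS1, a subunit of the enzyme that makes the dolichol carrier, had a log2 fold change of -1.10 (edgeR adjusted p = 0.0175), and ALG5, which charges dolichol with glucose, -0.77 (edgeR adjusted p = 0.0276). ALG10 and ALG10B, near-identical copies between which reads could be split, were also among the 6. Of 8 genes that trim the transferred glycan or bind it, 3 were called lower, among them the lectin chaperones CANX (log2 fold change -1.11, edgeR adjusted p = 0.0155) and CALR (log2 fold change -1.30, edgeR adjusted p = 0.0201). In that list 4 of the 8 genes had fold changes above 0, and the median was -0.06. BiP, encoded by HSPA5, and its exchange factor HYOU1 were called lower, with log2 fold changes of -1.68 (edgeR adjusted p = 0.00892) and -1.08 (edgeR adjusted p = 0.0126). SIL1, the other exchange factor, was not called, with a log2 fold change of 0.30. These lists hold genes described together with the translocon by textbook membership, and whether they differed from the 32 genes was not tested.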

How the data were processed

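RNA of SH-SY5Y cells was sequenced in 6 libraries, 3 for each label. By the submitters' notes and the study's methods, the authors converted base calls with bcl2fastq 1.8.4, mapped single-end reads with TopHat2 2.1.0 on GRCh38 and obtained the deposited counts per gene from featureCounts 1.5.0. The aligner was set to keep one alignment for each read, so reads of near-identical copies may be split between them. The labels name a stranded TruSeq mRNA kit and the methods a directional NEBNext kit with poly(A) selection. The deposited RPM values are these counts divided by the library total by the authors, and the deposited RPKM values are the RPM values divided by a gene length.

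Counts were tested in R 4.3.3 with edgeR 4.0.16 (TMM scaling, filterByExpr, quasi-likelihood F test with the label as the sole term, Benjamini-Hochberg adjustment over 16778 genes). Calls were made at an adjusted p under 0.1 with a log2 change beyond 0.5 either way. Alternatives used DESeq2 1.42.0, limma 3.58.1 on voom weights and on log2(RPM + 0.5), other scalings and filters, removal of a lowess GC trend (span 0.3) from each library, the mitochondrial share as a covariate, a replicate block and each library left out. Levels between genes were compared on the RPKM scale. Gene positions and GC content came from GENCODE 44. Replicates differed by more than counting noise. Precision is limited by 3 libraries in each group.

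The 32 genes and all lists were chosen with earlier results of these data known. Values for every library are given for the 2 genes with the smallest p among those called in each direction in a complex, or the 1 with the smallest p where none was called in that direction, and for the paralog pairs. From the neighbouring lists the 2 called genes with the smallest p are named; other names were added after their values were seen.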

Additional observations from a re-analysis of the deposited data

How the results depend on the processing

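All 15 calls among the 32 genes kept their direction under every alternative that was run, and none of the called values reversed; 10 genes that were not called changed sign under at least 1 alternative. The 15 calls became 8 when the GC trend was removed (7 of them among the 15), 2 with the mitochondrial share as a covariate and 9 at an adjusted p under 0.05; the mitochondrial covariate also raised the number called higher to 1 (OST4, log2 fold change 0.57). Leaving out 1 library gave 1 to 19 genes called lower, and 250 to 5144 genes called in all against 2986 with every library. Calls over all genes were 1788 with the GC trend removed (1099 higher, 689 lower), 1322 with the mitochondrial covariate and 1615 at an adjusted p under 0.05. The median log2 fold change of the 32 genes was -0.84 in limma on RPM, -0.89 with total counts and -0.25 with the mitochondrial covariate, beside medians over all genes of -0.33, -0.36 and -0.01, so that most of the shift under both scalings was shared by all genes. These scalings also tilted the calls, with 540 higher and 2692 lower on RPM and 559 higher and 2886 lower with total counts, against 1573 higher and 1413 lower after TMM. The summed level of the 32 genes with total counts was 0.579 times that of control-labelled libraries. DESeq2 called 16 of the 32 genes lower and limma-voom 15.

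The levels showed no pairing by replicate number. Deviations of same-numbered libraries correlated at -0.152, -0.458 and 0.167, where those of other pairs correlated at -0.364 to 0.441. Whether same-numbered libraries shared a culture or a transfection cannot be read from these values. With the replicate number as a block, 13 of the 32 genes were called lower and 2211 genes in all, and with the block and the GC trend removed 2 and 611 (434 higher, 177 lower).

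The limits are those of 3 libraries in a group that differ in mitochondrial share and in the GC trend of their levels, both of which move with the labels, and of MAPT reads that do not separate the groups. The cause of these shifts was not tested, except that a stricter threshold makes calls rarer by construction.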
